A study of Mus musculus with 384 samples.

Results

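The clustered protocadherins are cell surface cadherins encoded in 3 neighbouring gene clusters, Pcdha, Pcdhb and Pcdhg. The rows described here are those of the deposited gene table whose symbols start with Pcdha, Pcdhb or Pcdhg, which gave 24 of 32813 rows: 22 Pcdhb rows, 1 Pcdha row (Pcdha2) and 1 Pcdhg row (Pcdhga9). On mouse assembly mm10 with GENCODE M21 annotation, the Pcdha cluster lies on chromosome 18 from 36930184 to 37187661, the Pcdhb cluster from 37264938 to 37524479 and the Pcdhg cluster from 37661793 to 37841873. In this annotation the Pcdhb cluster holds 22 genes, and all 22 have a row of their own.

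As background, each isoform of these clusters has a promoter and a variable exon of its own, and a neuron uses only a few of the alternate promoters. The choice depends on CTCF and cohesin, which bring a distant enhancer to a promoter, and it can differ between the chromosome copies of a cell. The proteins pair within a cell membrane and then bind the same combination on another membrane, so that branches of 1 neuron can recognise each other. In the retina, the Pcdhg cluster is known for self-avoidance of starburst amacrine cell dendrites and for survival of interneurons. Pcdhb genes are single-exon genes, so each transcript holds its complete coding region, whereas Pcdha and Pcdhg transcripts splice a variable exon to constant exons shared by the cluster.

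The cells came from 4 retinas of 2 mice at postnatal day 17. Retinas 1la and 1Ra were from mouse 1 and retinas 2la and 2Ra from mouse 2. All mice carried a cre recombinase knocked in at Kcng4 and the Thy1-stop-YFP Line#1 reporter, which is switched on by cre. Whether each well held a cell in which both the driver and the reporter had been active was not tested. There was no treatment and no control genotype, and sex was not given. From each retina 96 single cells were sorted into wells and converted to full-length cDNA libraries by Smart-seq2, and 383 of 384 cells were available here. Cells of 1 mouse are not replicates, so errors are given over the 2 mice (SD, n = 2), and a retina cannot be told apart from its set of wells.

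Of the 383 cells, 321 had at least 3000 genes at an expected count of 1 or more, and 62 did not. The gene numbers next to this limit were 2834 and 3134. Kept cells had total expected counts of 203657 to 1945582 (median 1065569) and a median of 6354 genes, with the lowest median total in retina 1Ra (759554). Cells were sorted into classes by exactly 1 of Sox6, Vsx1 and Ddit4l at 20 TPM (a level corrected for transcript length, relative to all transcripts of the cell) or more, which are genes outside the protocadherin clusters. This gave 151 Sox6-only cells, 60 Vsx1-only cells and 59 Ddit4l-only cells, while 33 cells had none of these markers and 18 had several. All 4 retinas held every class, with 30 to 46 Sox6-only, 12 to 18 Vsx1-only and 10 to 20 Ddit4l-only cells per retina. Of 10 bipolar cell markers, all 10 were each detected in most Sox6-only cells, 9 in most Vsx1-only cells and 7 in most Ddit4l-only cells, and the classes are called by their marker gene. The summed level of 8 rod markers ranged from 8.25 to 14312 TPM in Sox6-only cells (median 135), from 9.47 to 21872 in Vsx1-only cells (median 301) and from 10.8 to 12474 in Ddit4l-only cells (median 65.2). The summed level of 6 Müller glia markers had medians of 147, 8.7 and 121 TPM in Sox6-only, Vsx1-only and Ddit4l-only cells and reached 10409, 17405 and 2981 TPM. Of these markers, Clu was detected in most Sox6-only and most Ddit4l-only cells, and none was in most Vsx1-only cells. The 5 cone markers had median sums of 2.13 to 3.10 TPM, with a highest cell of 17317 TPM among Sox6-only cells, and the 7 amacrine markers medians of 0.71 to 1.36 TPM. Ganglion and horizontal cell markers had a median sum of 0 in each class. The part of these transcripts in the results below was not tested, except where values without rod-rich cells are given. Doublets were not called, and the cells with several markers were kept apart.

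Isoforms could be counted one by one only for Pcdhb. The ratio of expected count to TPM within a cell gives the relative transcript length that a row was assigned in that cell. This length stayed between 0.994 and 1.01 of the row's median over the 20 Pcdhb rows that had at least 5 cells with 20 counts or more. It ranged from 0.570 to 1.10 for the Pcdha2 row and from 0.964 to 1.05 for the Pcdhga9 row, so the latter 2 rows combine transcripts of different lengths. The length also ranged from 0.740 to 2.15 for the Sox6 row and from 0.188 to 1.14 for the Ddit4l row. This measure therefore cannot tell several isoforms of a cluster from alternative transcripts of 1 gene. GENCODE M21 names 13 Pcdha and 22 Pcdhg genes, and the C-type isoforms Pcdhac1, Pcdhac2, Pcdhgc3, Pcdhgc4 and Pcdhgc5, which do not take part in the alternate promoter choice in the same way, were not analysed here as separate rows.

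In most cells between 1 and 3 Pcdhb isoforms were present (195 of the 270 classed cells, 72.2%), and each isoform was found in a minority of cells. An isoform was counted as present at 5 TPM or more. Of 7062 values (22 isoforms in 321 cells), 627 passed, and 519 of these (82.8%) were at 20 TPM or more, so presence was mostly far above the limit. Low values were also common: of 1146 values above 0, 388 were under 1 TPM and 131 were from 1 to under 5 TPM. Whether isoforms below the limit were unused or were missed in the library was not tested. The nearest values to the limit were 4.99 and 5.03 TPM. The median present value was 67.2 TPM, the highest was 791 TPM, and the median expected count behind a present value was 168. Only 3 present values rested on fewer than 10 counts. Of the kept cells, 46 of 321 (14.3%) held 0 isoforms, against 53 of 62 (85.5%) of the wells left out, whose median total count was 8838. Intervals and limits on shares of cells describe the sampling of cells from these 2 mice, whose cells are not independent replicates, and do not cover differences between animals. They cover counting error only, and PCR reads without molecular identifiers are not independent molecules.

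**Figure D1:**
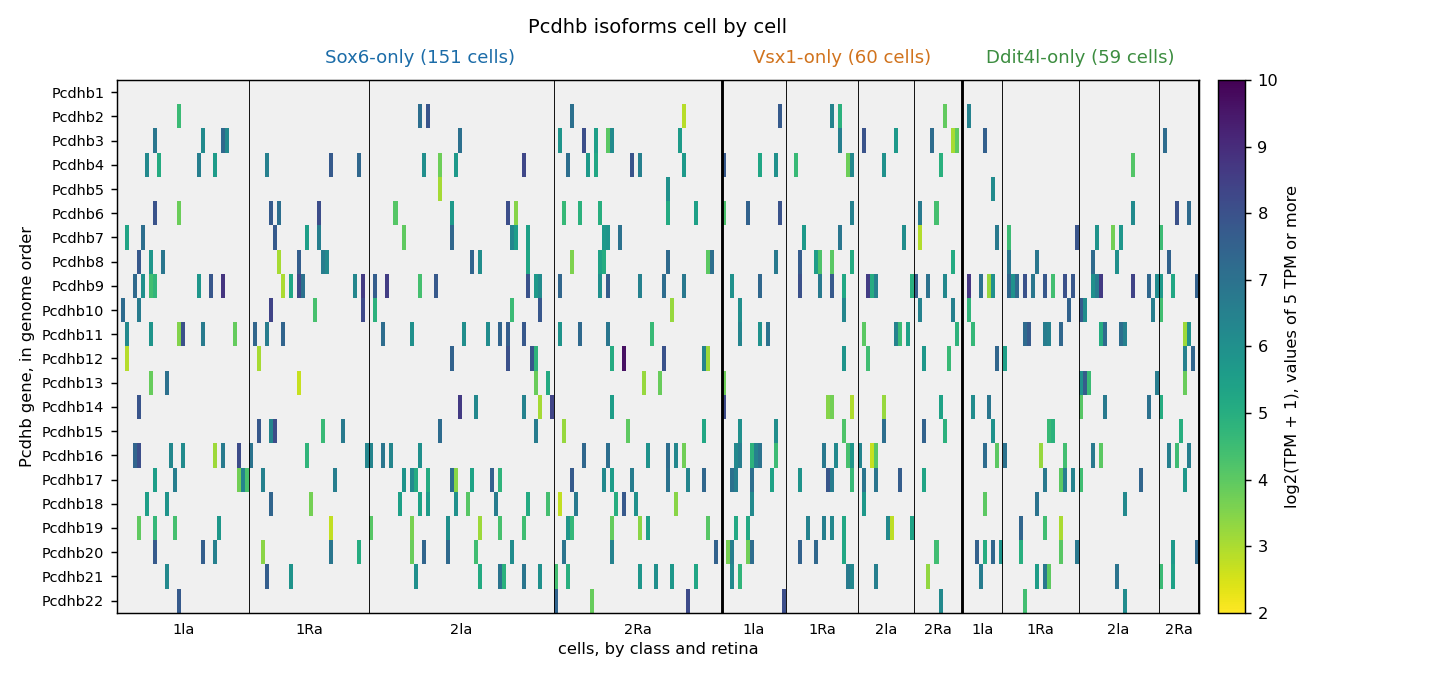
Each column is 1 of the 270 cells of the 3 classes, ordered by class and retina, and each row is 1 Pcdhb gene in genome order. Colour gives log2(TPM + 1) where the value was 5 TPM or more, and grey marks lower values. Marks are scattered over rows and cells, Pcdhb9 has the most and Pcdhb1 has none.

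Sox6-only cells held 1.82 ± 0.258 Pcdhb isoforms per cell (SD, n = 2 mice). The retina means, always given in the order 1la, 1Ra, 2la, 2Ra, were 1.76, 1.5, 1.91 and 2.10. Vsx1-only cells held 2.12 ± 0.283 isoforms, with retina means of 2.38, 2.28, 1.86 and 2.00. Ddit4l-only cells held 2.04 ± 0.145 isoforms, with retina means of 2.20, 2.11, 1.7 and 2.40. The retina means of the 3 classes overlapped. Vsx1-only exceeded Sox6-only in 2 of 4 retinas (differences from -0.0952 to 0.778), Ddit4l-only exceeded Sox6-only in 3 of 4 (from -0.213 to 0.605) and Ddit4l-only exceeded Vsx1-only in 1 of 4 (from -0.175 to 0.400). A paired exact sign-flip test over 4 retinas cannot give a two-sided p under 0.125, so these differences were not tested further. Without the cells holding 1000 TPM or more of rod transcripts, the means were 1.95 ± 0.0531, 2.07 ± 0.0150 and 1.85 ± 0.274.

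Cells outside the classes spanned a wider range. The 33 cells without a class marker held 1.52 ± 0.282 isoforms and the 18 cells with several markers held 2.60 ± 0.566. One cell of retina 2Ra with both Sox6 (132 TPM) and Vsx1 (136 TPM) held 10 isoforms, the highest number of any cell, and had 9129 genes. Whether it was a single cell was not tested. In the 3 classes, the number of isoforms had a Spearman correlation of 0.0586 with total count and 0.164 with the number of genes across 270 cells, which share retinas and wells.

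**Figure D2:**
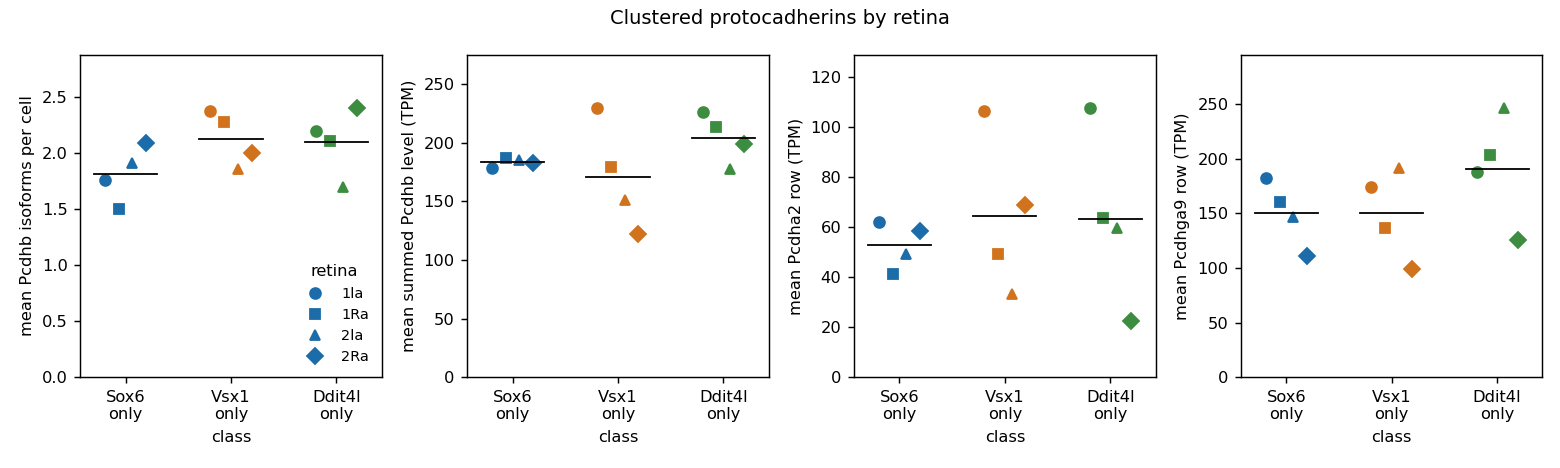
Each point is the mean over the cells of 1 class in 1 retina, for the number of Pcdhb isoforms per cell, the summed Pcdhb level, the Pcdha2 row and the Pcdhga9 row (all levels in TPM). Horizontal lines are means of the 4 retinas. The classes overlap in all 4 panels, and within each retina the Pcdhga9 row is highest in Ddit4l-only cells.

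Whether isoforms were taken independently of each other within a class was examined by comparing the observed spread with the spread that independent choice gives at the observed share of cells for each isoform. In Sox6-only cells, 22 cells held 0 isoforms, 47 held 1, 42 held 2, 20 held 3, and 20 held 4 or more, up to 6. Independent choice gives 21.4, 44.3, 43.2 and 26.3 cells for 0, 1, 2 and 3. The cells with 4, 5 and 6 isoforms numbered 14, 4 and 2, where independent choice gives 11.2, 3.57 and 0.879. The variance of the number was 1.11 times that of independent choice, and the ratio was 1.10 ± 0.0539 over mice. In Ddit4l-only cells, 6 cells held 0 isoforms, 15 held 1, 18 held 2, 13 held 3 and 7 held 4 or more, against 6.33, 15.7, 17.5 and 11.8 for 0 to 3. For 4 and 5 isoforms there were 5 and 2 cells, against 5.40 and 1.80. The variance ratio was 0.894, and 0.905 ± 0.0388 over mice. Over the retinas the ratio ran from 0.741 to 1.47 in Sox6-only cells and from 0.845 to 0.923 in Ddit4l-only cells. The Ddit4l-only ratio was above 1 with looser limits for presence, at 1.08 with 1 TPM and 1.16 with 2 counts. It was below 1 with 20 TPM (0.862) and with 2 counts after thinning each cell to 200000 counts (0.960).

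Vsx1-only cells had a wider spread, which was seen in mouse 1. Of 60 cells, 8 held 0 isoforms, 17 held 1, 13 held 2, 10 held 3 and 12 held 4 or more, against 5.93, 14.8, 17.3 and 12.5 for 0 to 3. For 4, 5, 6 and 7 isoforms there were 8, 1, 2 and 1 cells, against 6.29, 2.34, 0.665 and 0.149. The variance ratio was 1.40, and 1.28 ± 0.834 over mice. The 3 cells with 6 or 7 isoforms were all in retina 1Ra, where the ratio was 2.43, and without that retina it was 0.969. The ratios of the other retinas were 1.36 in 1la, 0.844 in 2la and 0.590 in 2Ra. In 2 of these 3 cells the rod markers summed to 3747 and 6869 TPM, and in the other one to 42.3 TPM. Without all cells holding 1000 TPM or more of rod transcripts, the ratio of the class was 1.37.

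**Figure D3:**
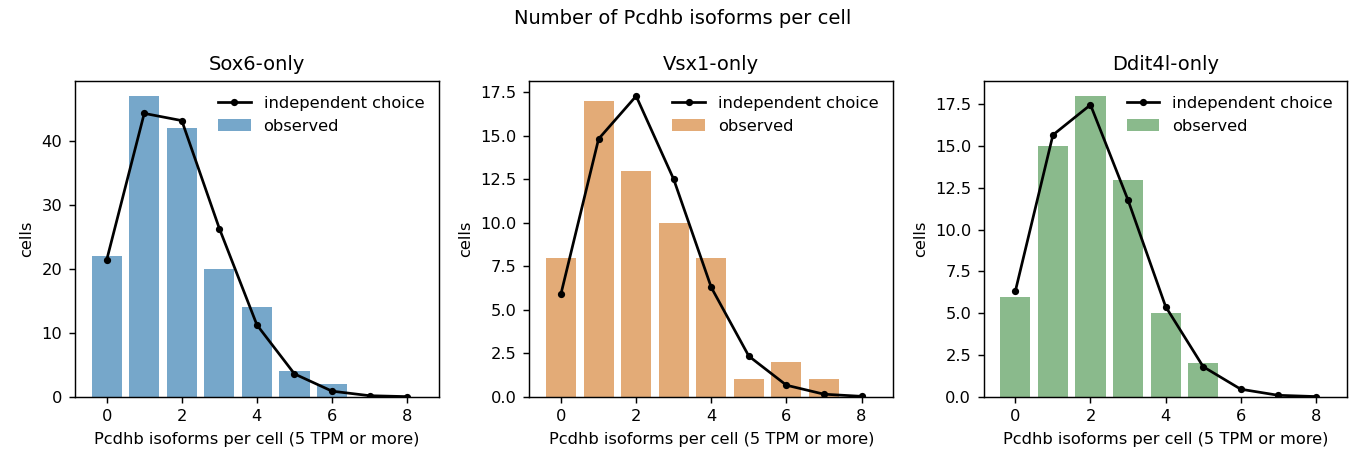
Bars count the cells of each class by the number of Pcdhb isoforms at 5 TPM or more, and the line gives the cells that independent choice at the observed shares would give. The bars follow the line in Sox6-only and Ddit4l-only cells, while in Vsx1-only cells more cells than the line gives hold 0, 1, 4, 6 or 7 isoforms.

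The isoforms were not used equally. Over the 3 classes, isoforms were present in 24 cells on average, with an SD over isoforms of 14 cells, where equal use would give an SD of 4.68. Shares per isoform ran from 0% to 22.6% with a median of 8.52%. Across the 22 isoforms, with the 3 classes pooled, the shares in mouse 1 and mouse 2 had a Pearson correlation of 0.814 and a Spearman correlation of 0.723. The order was thus partly shared between animals. Within the classes the Spearman correlation was lower, at 0.666 in Sox6-only, 0.425 in Vsx1-only and 0.464 in Ddit4l-only cells. The Pearson correlations were 0.653, 0.352 and 0.676. Isoforms are not independent replicates, and all of them were read in the same libraries.

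Pcdhb9 was the most frequent isoform in each class, tied with Pcdhb16 in Vsx1-only cells. It was present in 26 of 151 Sox6-only cells (17.2%, exact Clopper-Pearson 95% interval 11.6 to 24.2), in 13 of 60 Vsx1-only cells (21.7%, 12.1 to 34.2) and in 22 of 59 Ddit4l-only cells (37.3%, 25 to 50.8). The retinas gave shares of 40%, 47.4%, 30% and 30% among Ddit4l-only cells. The Sox6-only shares were 21.2%, 20%, 15.2% and 14.3%. The Vsx1-only shares were 12.5%, 22.2%, 28.6% and 25%. Where present, Pcdhb9 had a median level of 120 TPM in Sox6-only, 106 TPM in Vsx1-only and 140 TPM in Ddit4l-only cells.

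After Pcdhb9, Sox6-only cells most often held Pcdhb17 (23 cells, 15.2%). Vsx1-only cells held Pcdhb16 in 13 cells (21.7%), and Ddit4l-only cells held Pcdhb11 in 12 cells (20.3%). The Vsx1-only share of Pcdhb16 ranged from 0% in retina 2Ra to 37.5% in 1la. That range was wider than the differences between classes.

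Some isoforms were rare in all classes, and others in only some of them. Pcdhb1, at the 5′ end of the cluster, was present in 0 of 321 cells, which by counting alone allows a share of up to 0.935%. Pcdhb5 was present in 3 of the 270 classed cells, and Pcdhb22, at the other end, in 8. Pcdhb4 was present in 17 Sox6-only cells (11.3%) and 8 Vsx1-only cells (13.3%) but in 1 Ddit4l-only cell (1.69%, interval 0.0429 to 9.09). Pcdhb18 was present in 18 Sox6-only cells (11.9%), 2 Vsx1-only cells (3.33%) and 3 Ddit4l-only cells (5.08%). Pcdhb1, Pcdhb5, Pcdhb22 and Pcdhb18 were singled out after their values were seen.

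**Figure D4:**
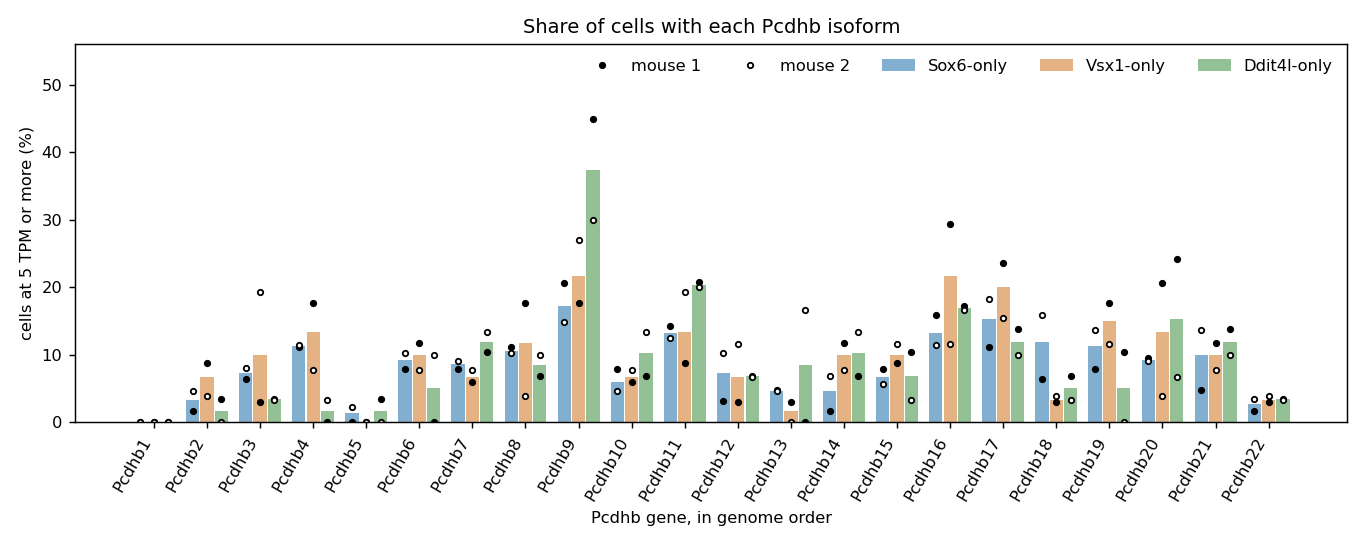
Bars give the share of cells of each class with an isoform at 5 TPM or more, for the 22 Pcdhb genes in genome order. Filled points are mouse 1 and open points are mouse 2. Pcdhb9 in Ddit4l-only cells is the tallest bar at 37.3%, with 44.8% in mouse 1 and 30% in mouse 2.

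Differences between the classes were tested on expected counts summed per mouse and class with edgeR's quasi-likelihood test, with the mouse as a block and Benjamini-Hochberg adjustment over 16646 genes. Of the 24 rows, 23 passed the filter on low counts, and Pcdhb1 did not. At an adjusted p under 0.05, edgeR called 0 of these 23 between Vsx1-only and Sox6-only cells, where 0% of all genes were called. It called 0 between Ddit4l-only and Sox6-only cells (0% of all genes) and 0 between Ddit4l-only and Vsx1-only cells (0.0421% of all genes). At an unadjusted p under 0.05 the counts were 0, 0 and 1 of 23, where 8.58%, 8.06% and 12.9% of all genes had such a p. DESeq2 called 0, 1 and 1 of 23, in each case Pcdhb4, where it called 5.44%, 4.91% and 10.4% of all genes. None of these counts exceeded the share over all genes. The median log2 fold change of the 23 rows was -0.50 for Vsx1-only minus Sox6-only, 0.03 for Ddit4l-only minus Sox6-only and 0.40 for Ddit4l-only minus Vsx1-only, beside -0.05, -0.08 and -0.01 over all genes. With 2 mice, a missed threshold does not show that levels were alike.

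Pcdhb4 had the lowest log2 fold change in both comparisons of Ddit4l-only cells. Its level, in CPM (counts scaled to a fixed total of the summed library), was 24 and 28.7 in Sox6-only cells of mouse 1 and mouse 2, 34 and 9.12 in Vsx1-only cells, and 0.00 and 1.33 in Ddit4l-only cells. The edgeR log2 fold change was -5.58 ± 2.20 (SE) against Sox6-only (adjusted p = 0.626) and -5.50 ± 2.35 against Vsx1-only (adjusted p = 0.436). Because 1 sum was at 0, the size of these fitted values depends on the fit, and without retina 2la they were -13.3 and -12.3. DESeq2 gave adjusted p = 0.00657 and 0.00333, so the call for Pcdhb4 was made by 1 tool and not by the other.

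Pcdhb9 was at 58.8 and 49.1 CPM in Sox6-only sums, 42.2 and 63.9 in Vsx1-only sums and 131 and 83.6 in Ddit4l-only sums. The log2 fold change was 0.98 ± 0.40 against Sox6-only (edgeR adjusted p = 0.641) and 0.99 ± 0.41 against Vsx1-only (adjusted p = 0.423). Without retina 2la the value against Vsx1-only was 0.54, and without cells holding 1000 TPM or more of rod transcripts the values were 0.40 and 0.32. Pcdhb11, the row with an unadjusted p under 0.05, was at 48.5 and 42.3 CPM in Ddit4l-only sums and 24.4 and 17.8 in Vsx1-only sums (log2 fold change 1.11 ± 0.40, edgeR adjusted p = 0.370). Without retina 1la this log2 fold change was 3.59 and without retina 1Ra it was -0.49, so its direction rested on retina 1Ra.

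Pcdhb13 had the highest log2 fold change in both comparisons of Ddit4l-only cells, 1.53 ± 2.48 against Sox6-only and 4.24 ± 2.65 against Vsx1-only (edgeR adjusted p = 0.945 and 0.584). The Ddit4l-only sums were 0.649 and 25.5 CPM in mouse 1 and mouse 2, so mouse 2 alone was high. Between Vsx1-only and Sox6-only cells, Pcdhb13 was also the lowest (-2.71 ± 1.97, adjusted p = 0.822) and Pcdhb15 the highest (1.03 ± 1.02, adjusted p = 0.904). Without retina 2la the Pcdhb13 values were -0.87 against Sox6-only and 1.33 against Vsx1-only, and the Pcdhb15 value was -0.30 without retina 1la and 3.20 without retina 1Ra.

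The combined Pcdhga9 row was present in nearly all cells. It reached 5 TPM in 146 of 151 Sox6-only cells, 60 of 60 Vsx1-only cells and 59 of 59 Ddit4l-only cells. Its mean level was 151 ± 29.8 TPM in Sox6-only, 151 ± 3.71 in Vsx1-only and 202 ± 5.37 in Ddit4l-only cells. In Ddit4l-only cells the retina means were 188, 203, 246 and 125 TPM. They were 182, 160, 146 and 111 TPM in Sox6-only cells and 174, 136, 191 and 99.2 TPM in Vsx1-only cells. Ddit4l-only cells were thus higher than each of the other classes in 4 of 4 retinas, by 5.67 to 99.6 TPM over Sox6-only and by 13.8 to 67.2 TPM over Vsx1-only. The edgeR log2 fold change was 0.32 ± 0.16 against Sox6-only (adjusted p = 0.704) and 0.34 ± 0.16 against Vsx1-only (adjusted p = 0.486), so the difference did not pass the test. Without retina 2la the value against Sox6-only was 0.10.

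The combined Pcdha2 row was present in fewer cells than the Pcdhga9 row: 89 of 151 Sox6-only (58.9%), 38 of 60 Vsx1-only (63.3%) and 44 of 59 Ddit4l-only cells (74.6%). Its mean level was 53 ± 1.15, 63 ± 18.8 and 63.2 ± 22.3 TPM. In Ddit4l-only cells the share ran from 40% in retina 2Ra to 100% in 1la, which exceeds the differences between classes. The log2 fold changes lay between -0.04 and 0.07 (edgeR adjusted p from 0.962 to 1.00). The number of Pcdhb isoforms did not follow this row in 1 direction. With the mice pooled, cells with it held 1.98 isoforms on average against 1.66 without it in the Sox6-only class. The values were 2.21 against 2.05 in the Vsx1-only class and 1.93 against 2.33 in the Ddit4l-only class. In the Vsx1-only class the mice differed in direction, with 2.44 against 2 in mouse 1 and 1.77 against 2.08 in mouse 2.

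Summed over the 22 isoforms, the Pcdhb level was 183 ± 1.12 TPM in Sox6-only, 170 ± 45.9 TPM in Vsx1-only and 201 ± 23 TPM in Ddit4l-only cells. Over the 3 classes pooled, the sum went up with the number of isoforms, in part by construction, and the level per isoform did not. The median level of a present isoform was 73.9 TPM in cells with 1 isoform, 81.4 TPM with 2, 67.8 TPM with 3 and 62.3 TPM with 4 or more, with median sums of 74.3, 193, 233 and 361 TPM. The classes differed in this. In the same order, the medians per isoform were 73.5, 74, 64.5 and 61.8 TPM in Sox6-only cells. They were 72.1, 42.9, 47.3 and 73.5 TPM in Vsx1-only cells. In Ddit4l-only cells they fell from 113 to 102, 86.1 and 51.9 TPM, with median sums of 116, 212, 306 and 311 TPM. Cells with 4 or more isoforms had a median total count of 1168931 beside 1067450 in cells with 1. One isoform usually gave most of the sum: the highest isoform made up a median of 79% of it in Sox6-only, 71.9% in Vsx1-only and 70.7% in Ddit4l-only cells that held an isoform. Across the 270 cells, the number of Pcdhb isoforms had a Spearman correlation of 0.0248 with the Pcdha2 row and 0.104 with the Pcdhga9 row, which is weak in both cases.

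Combinations were mostly unique to a cell. Among 82 Sox6-only cells with 2 or more isoforms there were 77 distinct sets, among 35 such Vsx1-only cells 34, and among 38 such Ddit4l-only cells 36. Pairs of cells with an identical set of 2 or more isoforms numbered 5, 1 and 2, where independent choice gives 7.36, 1.52 and 2.63. Over all 155 such cells of the 3 classes there were 138 distinct sets. No set was found in more than 3 cells, and Pcdhb9 with Pcdhb21 was among the sets found in 3.

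Pairs of isoforms met in a cell about as often as independent choice gives. Over the 231 pairs, joint presence was counted 515 times against 485 (ratio 1.06), with ratios of 1.05 in Sox6-only, 1.17 in Vsx1-only and 0.953 in Ddit4l-only cells. These totals over all pairs follow from the number of isoforms per cell. They restate the variance ratios given above and are not a second look at independent choice. The 21 pairs of neighbouring genes met 60 times against 51 (ratio 1.18). The ratio was 1.07 for genes 2 to 5 steps apart, 0.986 for 6 to 10 steps and 1.10 for more than 10 steps, so it had no steady course along the cluster.

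Pcdhb9 and Pcdhb16 met most often, in 11 cells against 9.99. Pcdhb19 and Pcdhb20, which are neighbours, met in 9 cells against 3.23, and Pcdhb17 and Pcdhb19 in 10 cells against 4.75. These last 2 pairs were singled out from 231 after their values were seen, so their excess is a description. RSEM divides reads that fit several genes by estimation, and 87.9% of present Pcdhb values were not whole counts (beyond a tolerance of 0.005), beside 69.2% over all genes. The part of shared reads in the joint counts was not tested. Pcdhb19 and Pcdhb20 share 3.65% of their 50-base words and Pcdhb17 and Pcdhb19 share 2.17%. Pcdhb21 and Pcdhb22, whose annotated transcripts overlap in position on the same strand, share 9.49% and met in 1 cell against 0.835. The 114 pairs with no shared 50-base word met 208 times against 194 (ratio 1.07).

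**Figure D5:**
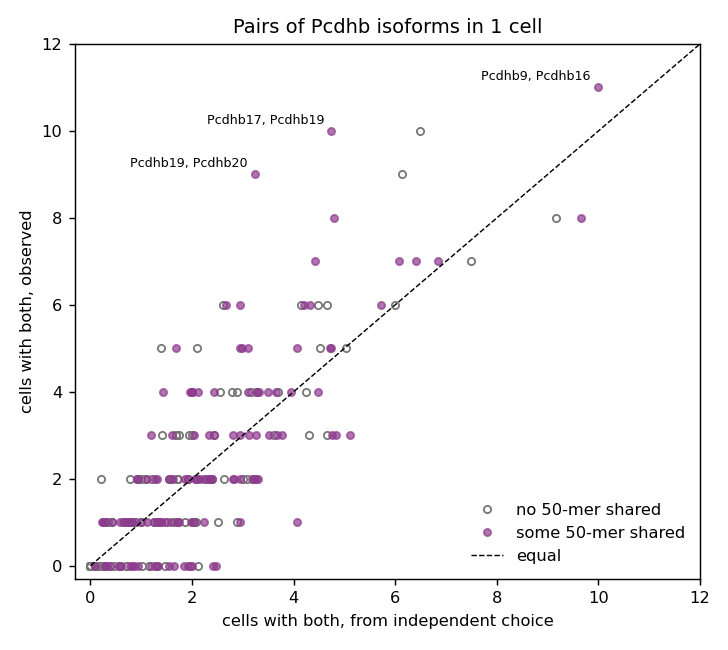
Each point is 1 of 231 pairs of Pcdhb genes, with the cells holding both on the vertical axis and the number from independent choice within classes on the horizontal axis. Filled points are pairs that share at least one 50-base word of transcript sequence. Points scatter around the line of equality, and the 3 labelled pairs met in 9 to 11 cells.

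Promoter and chromatin genes, and partner and signalling genes, were examined as 2 lists. Whether each of them acts on the promoter choice or on the proteins in these cells was not tested. Of 17 promoter and chromatin genes (CTCF, cohesin with its loaders and unloaders, DNA methyltransferases and silencing factors), edgeR called 0 in each of the 3 comparisons, and 1, 1 and 2 had an unadjusted p under 0.05, beside 8.58%, 8.06% and 12.9% of all genes. Its median log2 fold changes were -0.11, -0.05 and -0.09. Trim28, a corepressor of heterochromatin formation, was at 124 ± 54.3 CPM in Ddit4l-only and 32 ± 5.26 CPM in Vsx1-only sums (log2 fold change 1.87 ± 0.42, adjusted p = 0.234), the highest of its list. Stag2, a cohesin subunit, was the lowest in that comparison (-1.10 ± 0.31, adjusted p = 0.299). Rest, a repressor of neuronal genes, was the highest against Sox6-only in both Vsx1-only (1.11 ± 0.53, adjusted p = 0.675) and Ddit4l-only cells (1.29 ± 0.53, adjusted p = 0.641). The lowest were Pds5a, a cohesin regulator (-1.32 ± 1.51, adjusted p = 0.922), and the DNA methyltransferase Dnmt3b (-2.04 ± 1.24, adjusted p = 0.739).

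Of 13 partner and signalling genes, edgeR called 0 in each comparison, with 0, 0 and 0 at an unadjusted p under 0.05, beside the same shares of all genes. The median log2 fold changes of this list were -0.22, -0.02 and 0.24. Prkca, a protein kinase C, was the highest in Vsx1-only against Sox6-only cells, at 12.5 ± 10.7 CPM in Vsx1-only and 7.98 ± 2.95 CPM in Sox6-only sums (log2 fold change 0.58 ± 1.12, adjusted p = 0.975). The kinase Ptk2b, which the intracellular domains bind, was the lowest in that comparison (-1.22 ± 1.84) and the highest in both Ddit4l-only comparisons (3.15 ± 2.37 and 4.37 ± 2.41), with adjusted p from 0.532 to 0.959. Its level was 0.314 ± 0.00203 CPM in Sox6-only, 0.144 ± 0.0143 in Vsx1-only and 5.66 ± 7.81 in Ddit4l-only sums. The Ddit4l-only sums were 11.2 CPM in mouse 1 and 0.139 CPM in mouse 2, so 1 sum alone was high. The kinases Fyn (-0.83 ± 0.71 against Sox6-only, adjusted p = 0.835) and Ptk2 (-0.62 ± 0.62 against Vsx1-only, adjusted p = 0.752) were the lowest in Ddit4l-only cells.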

How the data were processed

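The deposited tables hold RSEM expected counts and TPM values per gene and cell, which the authors made with TopHat2 2.0.10, RSEM 1.2.28 and mm10, per the submitters' processing notes. The gene annotation and read length are not given in the sources used here. Of 384 cells in the labels, 383 had columns, and 0 columns were left unmapped. The rows and gene lists were chosen with earlier results of these data known. Named genes are the 2 most frequent isoforms per class, rows called, the rows with the highest and lowest fold change per comparison, and the same extremes of each gene list; others are said to have been singled out. One gene of the lists is not reported here.

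Shares, variances and pair counts under independent choice were computed from the share of cells per isoform within a class (Python 3.11.15, pandas 2.3.3, scipy 1.17.1). Expected counts were rounded, summed per mouse and class, and tested with edgeR 4.0.16 (R 4.3.3, limma 3.58.1) after filterByExpr and TMM scaling; CPM values were computed here. DESeq2 1.42.0 was an alternative. The classes are paired because both mice hold each class: correlations of same-mouse deviations were 0.0279, 0.0664 and 0.0262. The scripts were tested on simulated data. Nothing says whether reads were counted by strand. Pcdhb transcripts shared from 0% to 12.0% of their 50-base words with other Pcdhb genes (median 4.26%), and the division of shared reads is uncertain. Alternatives changed the TPM, gene and marker limits, the thinning of each cell to 200000 counts, the model and the retinas used.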

Additional observations from a re-analysis of the deposited data

Results flagged for a closer look

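The difference in the number of Pcdhb isoforms per cell between Vsx1-only and Sox6-only cells pointed in opposite directions in the mice: the mean of the retina differences was 0.698 in mouse 1, where both retinas were higher in Vsx1-only cells, and -0.0756 in mouse 2, where both were lower. The difference between the mice was not tested. Among the 62 wells under 3000 genes, which the comparisons leave out, 9 held at least 1 Pcdhb isoform at 5 TPM or more, and the Pcdhga9 row reached 5 TPM in 16 of them; these wells had a median total count of 8838. None of the 18 groups of 4 retinas examined held a retina far from the others, where chance flags about 5% of groups.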

How the results depend on the processing

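Across 378 alternative values, 313 kept their direction and side of the threshold or stayed within the replicate spread. The number of Pcdhb isoforms in Sox6-only, Vsx1-only and Ddit4l-only cells was 2.18, 2.5 and 2.49 with a limit of 1 TPM and 1.49, 1.74 and 1.80 with 20 TPM, which by construction count more and fewer values. With a limit of 2 counts it was 2.43, 2.78 and 2.81, and after thinning each cell to 200000 counts 1.94, 2.26 and 2.19. Leaving out each retina gave 1.75 to 1.88, 2.09 to 2.16 and 1.92 to 2.27, and leaving out cells with rod transcripts gave 1.85 in Ddit4l-only cells. The variance ratio in Sox6-only cells was 1.16 with 1 TPM, 1.17 with 5000 genes, 1.04 with a marker limit of 50 TPM, 1.21 with 2 counts and 1.19 after thinning. In Ddit4l-only cells it was 1.08 with 1 TPM, 0.862 with 20 TPM, 1.16 with 2 counts, 0.960 after thinning and 0.843 without rod transcripts. Without each retina it was 1.02 to 1.16, 0.969 to 1.61 and 0.863 to 0.912. The cause was not tested.

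Genes called for Vsx1-only minus Sox6-only, Ddit4l-only minus Sox6-only and Ddit4l-only minus Vsx1-only were 0, 0 and 7. Without the replicate block of the mouse they were 16, 2 and 62, with sums and a replicate block per retina 126, 89 and 366, and with DESeq2 906, 818 and 1726. DESeq2 was the sole setting that called a protocadherin, 1 in each Ddit4l-only comparison (Pcdhb4, -5.66 and -5.65); neither fit without the mouse block or by retina called one. With no filter 3 genes were called in the first comparison, and with a marker limit of 50 TPM 1. In the third comparison 4 were called with 5000 genes, 4 with 50 TPM, 0 without rod transcripts and 0 to 11 without each retina.

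Directions reversed 20 times, with adjusted p from 0.824 to 1. Pcdhga9 in Vsx1-only minus Sox6-only was 0.0249 with DESeq2, 0.0249 with RLE size factors, and -0.192 to 0.0841 without each retina (0.00217 without 1Ra). Pcdha2 in that comparison was 0.0208 without the block, 0.00468 with DESeq2, 0.00466 with RLE, 0.0170 with 50 TPM, 0.0119 without rod transcripts, and -0.16 to 0.11 without each retina (0.0208 without 1Ra, 0.113 without 2la). In Ddit4l-only minus Sox6-only it was -0.0830 with 5000 genes, -0.16 without rod transcripts and -0.26 to 0.17 without each retina. In Ddit4l-only minus Vsx1-only it was -0.18 without rod transcripts and -0.37 to 0.33 without each retina. Pcdhb13 in Ddit4l-only minus Sox6-only was -0.67 with a marker limit of 10 TPM and -0.87 to 2.13 without each retina; Pcdhb11 in Ddit4l-only minus Vsx1-only was -0.49 to 3.59 and Pcdhb15 in Vsx1-only minus Sox6-only -0.30 to 3.20. The cause was not tested.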
